A study of Mus musculus with 12 samples.

Results

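Zfp36, Zfp36l1, Zfp36l2, Elavl1, Khsrp, Btg1, Btg2, Tob1 and Cnot1 encode proteins that bind AU-rich elements or recruit the enzymes that shorten poly(A) tails. They were chosen by name, with earlier results of these data known. All exonic and intronic values of their transcripts were summed per gene. The regulators make up 9 of the 34079 genes whose transcripts could be named. All cells were mouse embryonic stem cells (mESCs) of the DTCM23/49 XY line, grown in serum with LIF on gelatin and exposed to 200 µM 4-thiouridine (4sU) for 15, 30 or 60 min. 4sU enters RNA as it is made, so that newly made RNA can be biotinylated and captured on streptavidin beads. This captured fraction is called labeled RNA, and the unselected RNA of the same cells total RNA. With 3 labeling times and 2 biological replicates, which were passaged apart after a single culture had been divided, there were 6 labeled and 6 total libraries. No untreated cells and no mock capture were among them, so carry-over of unlabeled RNA was not measured.

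AU-rich elements are sequences in the 3′ UTR that mark an mRNA for rapid decay. The zinc finger proteins encoded by Zfp36 (tristetraprolin), Zfp36l1 and Zfp36l2, and the KH-domain protein encoded by Khsrp, bind them and bring in the decay machinery, whereas the protein encoded by Elavl1 (HuR) binds similar sequences and usually protects the mRNA. Btg1, Btg2 and Tob1 encode BTG/TOB proteins, which contact the CCR4-NOT deadenylase and speed up tail shortening, and Cnot1 encodes the large scaffold subunit on which that complex is built.

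Several of these regulators carry AU-rich elements themselves. The nonamer TTATTTATT, searched on the sense strand of the annotated 3′ UTR, was found in Zfp36, Zfp36l1, Zfp36l2 and Elavl1, and in 6.52% of 9616 expressed protein-coding genes. The shorter heptamer TATTTAT, which lies within the nonamer, was also found in Btg2, and in 23.9% of those genes. The 29-base windows around these elements are shown because they set the family of decay factors beside their antagonist Elavl1. They are taken from GENCODE M1 transcripts on mm9, 5′ to 3′ on the sense strand with T for U, and the pentamer ATTTA stands in capitals.
Zfp36: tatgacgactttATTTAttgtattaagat
Zfp36l1: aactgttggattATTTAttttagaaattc
Zfp36l2: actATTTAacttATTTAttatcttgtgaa
Elavl1: ATTTATTTATTTATTTAtttttATTTAtt
Btg2: aaatgaagagctATTTAtacatgtttttt

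All 5 windows lie on the minus strand in 3′ UTR exons, at chr7:29161970-29161998 for Zfp36, chr12:81209154-81209182 for Zfp36l1, chr17:84584254-84584282 for Zfp36l2, chr8:4285776-4285804 for Elavl1 and chr1:135973826-135973854 for Btg2. The Elavl1 UTR, at 4818 bases the longest of the 9, held 8 nonamers, counting overlaps, and 18 pentamers, and its window has 5 pentamers, of which the first 4 overlap. The Zfp36, Zfp36l1 and Zfp36l2 UTRs held 1 nonamer and 3 heptamers each. Per kb of UTR, pentamers numbered 4.92 in Zfp36l1, 3.91 in Tob1, 3.88 in Zfp36, 3.74 in Elavl1, 2.74 in Zfp36l2, 2.64 in Btg1 and 2.27 in Btg2. All of these lie above the median of 1.10 over coding genes, whereas Cnot1 with 1.05 and Khsrp with 0.612 lie below it. A match of letters is a description of the sequence and not a binding site.

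The deposited values were read as length-normalized abundances, a unit that no source used here states. They sum to between 19988830 and 19992902 units per library, so that on this reading 20 units are about 1 TPM. A difference between labeled and total RNA is therefore relative to all other transcripts. The study gives depth only as an average over libraries, so that of each library is unknown. In total RNA the level per length was highest for Cnot1, at 2018 ± 248 units (SD, n = 6), which is percentile 95.2 of 16801 protein-coding genes. Zfp36l1 followed with 261 ± 36.0 units and Khsrp with 219 ± 49.2 units, whose ranges overlapped. Tob1 with 132 ± 17.6 and Elavl1 with 125 ± 18.0 units overlapped as well. Zfp36l2 stood at 90.7 ± 12.8 units and Zfp36 at 57.6 ± 28.8 units, while Btg1 with 49.6 ± 7.49 units lay within the range of Zfp36. Btg2 was lowest with 17.8 ± 2.22 units, at percentile 36.3, below every library's value of the other 8 genes.

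The cells carried the markers of their label. All 8 mESC markers (Pou5f1, Sox2, Nanog, Zfp42, Esrrb, Tdgf1, Fgf4 and Dppa5a) were above 20 units on average, and their summed level ran from 17600 to 30270 units per library, with Dppa5a most abundant at 7684. The summed level of 6 fibroblast markers was at most 4.55 units in any library, and Col3a1, Dcn, Lum and Postn had no value above the cutoff of 1 unit in any library, below which none is listed. The 4 endoderm markers summed to at most 23.1 units, with Gata4 most abundant at 9.45, and T and Mixl1 to at most 8.54. Cdx2 had no value above the cutoff and Eomes averaged 12.5 units. Pax6, the neural marker matched, varied from 9.05 to 179 units in labeled and from 16.1 to 140 units in total RNA. Whether cells of other types were present and took part in the results below was not tested. In bulk RNA, a change in the number of cells that express a gene and a change in RNA per cell cannot be told apart.

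The libraries were not equally well separated. Introns took up 14.8% of the signal in the labeled 15 min library of replicate 1, 9.35% and 10.8% in the 30 min labeled libraries and 13.9% in the labeled 60 min library of replicate 1, against 6.53% to 7.41% in total RNA. The labeled 15 and 60 min libraries of replicate 2 had intronic shares of 7.24% and 6.99%, within the range of total RNA. On the first principal component of exonic abundance, which held 23.8% of the variance, these 2 libraries scored 17.5 and 23.3, next to the total RNA libraries at 24.9 to 57.8, and the other 4 labeled libraries scored -103 to -34.2. Libraries also differed in base composition. This was measured by the median deviation of the GC-richest coding genes minus that of the GC-poorest, on the log2 scale. It was +0.44 in the labeled 60 min library of replicate 2 and -0.42 in the total 30 min library of replicate 1. Labeled-to-total differences of the genes and lists named are therefore also given with the GC trend of each library removed. In exons they are also given without the 2 labeled libraries that stand apart. Either is given where it changes a call or moves a value by over 1.5 times. Removing the GC trend sets the median deviation of each of 20 GC classes to 0 in every library. It thereby also centres the libraries, and it covers only coding genes with a sequence, which are 10637 features in exons. The part of base composition alone was not tested. In introns the 2 labeled libraries that stand apart were left out 1 at a time, since their low intronic shares are what singled them out. They were left out together only in the fits without the whole of replicate 2.

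The first question was which of these mRNAs make up more of the newly made RNA than of the RNA at hand. Btg2 was higher in labeled RNA, and Elavl1, Cnot1 and Khsrp were lower. The 3 Zfp36 family genes, Btg1 and Tob1 had positive differences that did not pass the test. Over 25318 genes and unassigned transcripts tested with limma, 15.9% passed an adjusted p of 0.05, 6.38% as higher and 9.49% as lower in labeled RNA. The balance of directions was not stable. Higher and lower calls numbered 1615 and 2402 in this fit and 1649 and 3690 with libraries centred on their median. They numbered 2052 and 1817 without a filter, 1205 and 1237 with the replicate as a block and 4010 and 3450 without the 2 labeled libraries that stand apart. Of the 9 regulators, all of which passed the filter on low values, 1 was higher and 3 were lower. Their median log2 difference was 0.34 beside -0.01 over all features. Without the 2 labeled libraries that stand apart the median of the 9 was 0.22, with 2 higher and 3 lower, where 29.5% of all features passed. With the GC trend removed 3 were higher and 3 lower, where 25.5% passed. With the replicate block 1 was higher and 1 lower, where 9.65% passed.

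**Figure D1:**
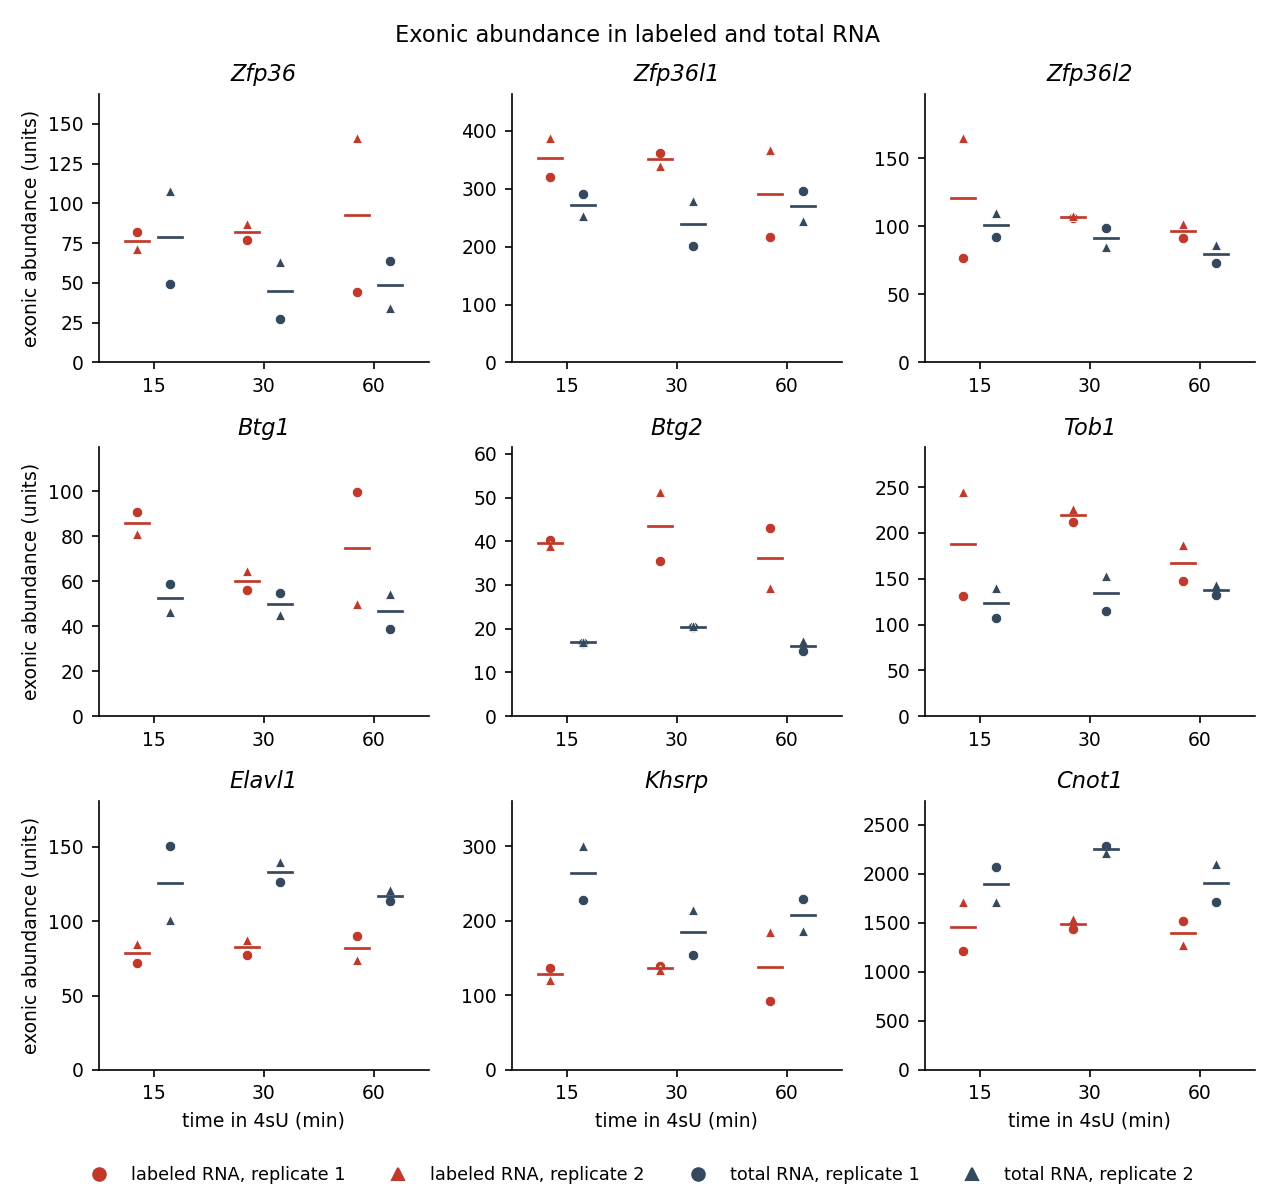
Exonic abundance in units (about 20 per TPM, linear axes from 0) of the 9 regulators against time in 4sU, with labeled RNA in red, total RNA in dark blue, circles for replicate 1, triangles for replicate 2 and bars for the mean of 2 libraries. Every labeled value of Btg2 lies above 29 units and every total value below 21, while for Elavl1 and Cnot1 all labeled values lie below all total values.

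Btg2, a BTG/TOB gene known as an early response and p53 target gene, had between 29.30 and 51.27 units in labeled RNA with a median of 39.66. In total RNA it had between 14.84 and 20.51 units with a median of 17.12. The groups did not overlap, which was so for 3.33% of all features with labeled RNA higher. The difference was 1.11 ± 0.18 on the log2(value + 1) scale (SE), a 2.15-fold higher value in labeled RNA with a 95% interval of 1.62 to 2.85, and limma's Benjamini-Hochberg adjusted p was 0.00368. Its mean in total RNA lies under the filter of 20 units, so it was tested because of its labeled values. Without any filter the adjusted p (limma) was 0.00691. With the replicate as a block it was 0.02, and Btg2 remained called in each fit that left out 1 library.

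Tob1, the most abundant of the 3 BTG/TOB genes described here, had 130.72 to 244.69 units in labeled RNA with a median of 199.5 and 107.37 to 153.35 units in total RNA with a median of 135.8. Labeled RNA exceeded its paired total library in 6 of 6 pairs, but the ranges overlapped. The log2 difference was 0.51 ± 0.17 (limma adjusted p = 0.0655). Btg1, whose product arrests proliferation in many cell types, had 49.84 to 99.61 units in labeled RNA with a median of 72.53 and 38.72 to 58.69 in total RNA with a median of 50.27. Here 5 of 6 pairs were positive, and the log2 difference was 0.53 ± 0.19 (limma adjusted p = 0.0831). Both passed with the GC trend removed, at adjusted p of 0.0133 for Tob1 and 0.0024 for Btg1 (limma). With libraries centred on their median Btg1 passed as well, at 0.47 ± 0.14 (limma adjusted p = 0.0336), and Tob1 did not, at 0.45 ± 0.21 (0.153). Without the 2 labeled libraries that stand apart, Btg1 passed (adjusted p = 0.0325, limma) and Tob1 did not (0.121). Leaving out 1 library also decided these calls, as Btg1 passed without labeled 60 min of replicate 2 (limma adjusted p = 0.0323) and Tob1 without labeled 15 or 60 min of replicate 1 (0.0381 and 0.0433). Btg1 and Tob1 transcripts have GC contents of 43.0% and 45.7%, below the median of 49.9% of coding genes.

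Zfp36 had the widest error of the 9 genes. Zfp36, an immediate early gene of the serum response, had 44.50 to 140.97 units in labeled RNA with a median of 79.34 and 27.01 to 108.09 units in total RNA with a median of 56.42. Its highest labeled and its lowest total value came from the libraries with the most GC-rich and the most GC-poor signal, and its own transcript has 54.0% GC. The log2 difference was 0.59 ± 0.34 (limma adjusted p = 0.256), with an interval of -0.16 to 1.34 that includes both no difference and that of Btg2. With the GC trend removed it was 0.67 ± 0.35 (limma adjusted p = 0.174). It ran from 0.37 without labeled 60 min of replicate 2 to 0.80 without total 15 min of replicate 2, and did not pass in any fit that left out 1 library.

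Zfp36l1 had 216.84 to 387.25 units in labeled RNA with a median of 351.4 and 200.38 to 296.75 units in total RNA with a median of 265.8. All labeled values except that of 60 min replicate 1 lay above all total values. The log2 difference was 0.34 ± 0.16 (limma adjusted p = 0.171), and without that library it was 0.46 ± 0.12 (limma adjusted p = 0.0279). Without the 2 labeled libraries that stand apart it was 0.22 ± 0.17 (limma adjusted p = 0.354). Its 2 transcripts shared the signal alike in both fractions, with 58.0 ± 3.75% in labeled and 59.0 ± 1.55% in total RNA (SD, n = 6) for the more abundant. A long intergenic gene on the other strand, Gm17591, spans most of Zfp36l1 at chr12:81209021-81213987, and the sources used here do not state that strand was used in counting.

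Zfp36l2 had 76.69 to 164.81 units in labeled RNA with a median of 103.9 and 72.77 to 109.92 units in total RNA with a median of 89.2. Only the labeled 15 min library of replicate 2, one of those that stand apart, exceeded all total libraries. The log2 difference of 0.22 ± 0.17 did not pass (limma adjusted p = 0.406), and without both libraries that stand apart it was 0.04 ± 0.15 (limma adjusted p = 0.845). Leaving out 1 library gave 0.09 without labeled 15 min of replicate 2 to 0.37 without labeled 15 min of replicate 1, and it did not pass in any of these fits.

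Elavl1 had 72.04 to 90.28 units in labeled RNA with a median of 81.02 and 100.78 to 150.77 units in total RNA with a median of 123.5. The groups did not overlap, as for 6.32% of all features with labeled RNA lower. Its UTR holds the most nonamers of the 9. The ratio of labeled to total RNA was 0.652 (95% interval 0.533 to 0.798; log2 difference -0.62 ± 0.13, limma adjusted p = 0.0115). It remained called with the replicate block (limma adjusted p = 0.0419), with the GC trend removed (0.0159) without the libraries that stand apart (0.0144) and in each fit that left out 1 library.

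Cnot1 had 1211.64 to 1711.29 units in labeled RNA with a median of 1477 and 1714.06 to 2287.88 units in total RNA with a median of 2088. Highest labeled and lowest total value, both at 15 min in replicate 2, nearly met, but the groups did not overlap. The ratio was 0.717 (95% interval 0.604 to 0.852; log2 difference -0.48 ± 0.11, limma adjusted p = 0.0169). With the GC trend removed the log2 difference shrank to -0.29 ± 0.07 (limma adjusted p = 0.014). With the replicate as a block the adjusted p was 0.0625 (limma), and in the fits that left out 1 library it remained called. Both of its transcripts were lower in labeled RNA when fitted singly, by -0.53 ± 0.12 and -0.43 ± 0.12 on the log2 scale (limma adjusted p = 0.0127 and 0.0262). The snoRNA genes SNORA46 and SNORA76 lie on its strand within its span, and 4930513N10Rik overlaps its 5′ end on the other strand.

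Khsrp had 92.02 to 184.64 units in labeled RNA with a median of 135.6 and 154.53 to 300.87 units in total RNA with a median of 221.4. In 5 of 6 labeled libraries it lay below all total libraries, the exception being 60 min of replicate 2, and labeled RNA was lower in all 6 pairs. The ratio was 0.616 (95% interval 0.463 to 0.821; log2 difference -0.70 ± 0.19, limma adjusted p = 0.0294). This call was the weakest of the 3. It was lost with the replicate block (limma adjusted p = 0.0683), with libraries centred on their median (0.0522) and, with adjusted p of 0.0519 to 0.0723, without any one of 7 libraries: labeled 15 min of replicate 1, both labeled 30 min, both total 15 min, total 30 min of replicate 2 and total 60 min of replicate 1.

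**Figure D2:**
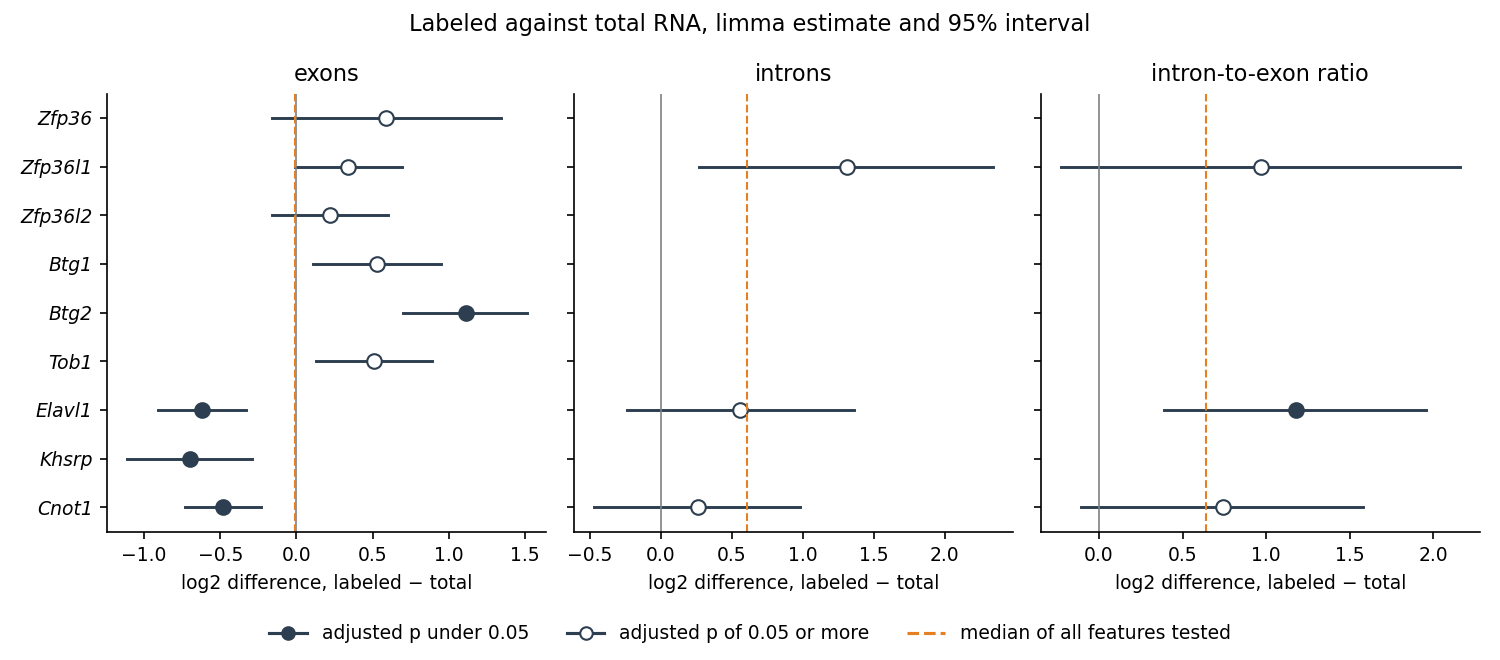
Log2 differences between labeled and total RNA of the 9 regulators in exons, introns and the intron-to-exon ratio, with points for the limma estimate, lines for 95% intervals, filled points for adjusted p under 0.05 and a dashed line for the median of all features tested. In exons Btg2 is the filled point above 0 and Elavl1, Khsrp and Cnot1 those below, and 3 genes have enough intronic signal for the other panels.

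The other genes of these pathways were counted in the same fit, from lists written with earlier results of these data known. As background, 6.38% of all features passed as higher and 9.49% as lower in labeled RNA, at a median of -0.01. All 10 other CCR4-NOT subunit genes were tested, of which 4 passed as lower and 0 as higher (6 did not pass), at a median log2 difference of -0.32. With the GC trend removed the median was -0.18, at the same counts, beside 1285 higher and 1431 lower of 10637 features. With libraries centred 6 passed as lower, beside 3690 of 25318 features. The catalytic subunit gene Cnot6l had a log2 difference of -0.79 ± 0.17 (limma adjusted p = 0.0121) and the ubiquitin ligase subunit gene Cnot4 had a log2 difference of -0.53 ± 0.14 (limma adjusted p = 0.0296, and 0.0804 with the replicate block). Among 7 tested of 8 other deadenylases, poly(A)-binding proteins and BTG/TOB genes, 0 passed as higher and 3 as lower, at a median of -0.13, or -0.08 with the GC trend removed. The cytoplasmic poly(A)-binding protein gene Pabpc1 fell from 42520 ± 4134 units in total to 23270 ± 2374 units in labeled RNA (SD, n = 6; log2 difference -0.87 ± 0.10, limma adjusted p = 0.000828), and Pan3, a subunit of the PAN2-PAN3 deadenylase, had a log2 difference of -0.86 ± 0.15 (limma adjusted p = 0.00437). The BTG/TOB genes Tob2 and Btg3 had differences of 0.22 ± 0.26 and 0.21 ± 0.14 that did not pass. Without the 2 labeled libraries that stand apart that of Tob2 was 0.03 ± 0.22 (limma adjusted p = 0.922). With the GC trend removed Btg3 passed, at 0.35 ± 0.09 (limma adjusted p = 0.0134). Btg4 had no value above the cutoff of 1 unit.

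Of 9 genes for decapping and 5′ to 3′ decay, 1 passed as higher and 3 as lower, beside 6.38% and 9.49% of all features, and the median was -0.37. The helicase gene Ddx6 had the log2 difference farthest from 0, at -1.08 ± 0.13 (limma adjusted p = 0.0012), followed by the decapping enzyme gene Dcp2 with -0.85 ± 0.16 (limma adjusted p = 0.00607). Lsm1, part of the LSM ring on deadenylated mRNA, was the 1 higher gene, with 0.60 ± 0.18 (limma adjusted p = 0.041, 0.0709 with the replicate block and 0.0679 without a filter). Edc4, a scaffold for decapping, had -0.43 ± 0.11 (limma adjusted p = 0.027, and 0.0825 with the block). The block thus left 0 higher and 2 lower genes of this list, beside 1205 and 1237 of 25318 features. With libraries centred 1 was higher and 5 were lower, beside 1649 and 3690 of 25318. With the GC trend removed 1 was higher and 4 were lower, beside 1285 and 1431 of 10637. Without the 2 labeled libraries that stand apart 1 was higher and 5 were lower, beside 4010 and 3450 of 25318. Of 7 genes for other proteins that bind AU-rich elements 5 were tested, with a median of -0.55, and 0 passed as higher and 2 as lower, which are Elavl4 with -0.98 ± 0.25 (limma adjusted p = 0.0252) and Hnrnpd (AUF1) with -0.55 ± 0.09 (limma adjusted p = 0.00402). With the GC trend removed the median was -0.36, and Hnrnpd did not pass, at -0.36 ± 0.14 (limma adjusted p = 0.0711), whereas Elavl2, a neuronal relative of Elavl1, did as lower, at -0.45 ± 0.13 (0.0256). With libraries centred 3 passed as lower, beside 3690 of 25318 features.

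The mRNAs that textbooks name as carriers of AU-rich elements were mostly scarce in these cells. Of 16 such genes only 5 passed the filter, with a median of 0.29, or 0.12 without the 2 labeled libraries that stand apart. Of these 5 genes, 2 passed as higher in labeled RNA, beside 6.38% of all features, and 0 as lower. Dusp1, a MAP kinase phosphatase, had 1120 ± 324 units in labeled and 491 ± 87.6 units in total RNA (log2 difference 1.15 ± 0.21, limma adjusted p = 0.00587), and the early response gene Ier3 had 46.7 ± 22.8 and 17.9 ± 8.89 units (log2 difference 1.32 ± 0.39, limma adjusted p = 0.04). The total RNA level of Ier3 lies under the filter of 20 units on average, so it was tested because of its labeled values. It did not pass without a filter (limma adjusted p = 0.0594), with libraries centred (0.0668) or without the 2 labeled libraries that stand apart (0.0958). In each of the last 2 of these fits 1 gene of the list was called as higher, beside 1649 and 4010 of 25318 features. In the fit without a filter the median was 0.85 over 10 genes, and the 2 genes called, beside 3.74% of all features as higher, were Dusp1 and Jun, a subunit of the AP-1 transcription factor, with 1.09 ± 0.29 (limma adjusted p = 0.0466). Fosb, Tnf, Il6, Csf2, Cxcl1 and Cxcl2 had no value above the cutoff of 1 unit in any of the 12 libraries. Across the genome, the 627 expressed coding genes with a nonamer in the 3′ UTR had a median log2 difference of -0.05 and the 746 with at least 2 heptamers one of -0.14, beside -0.01 for the 3719 without a pentamer and -0.07 for all 9616.

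Introns, which stand for unspliced RNA, were sparse for most of these genes. They averaged 20 units or more in Cnot1, Elavl1 and Zfp36l1, and Zfp36, Zfp36l2, Btg1 and Tob1, each with a single intron, had at most 5.94 units in any library. Of 12621 features tested 28.7% passed, 28.4% as higher and 0.317% as lower in labeled RNA, with a median log2 difference of 0.60 over all features. With each library centred on its median, the calls were 1333 higher and 1421 lower in place of 3585 and 40. The median moved to -0.04, and to 0.003 with the GC trend removed, which also centres libraries. Of the 3 regulators tested 0 passed in limma (1 at an unadjusted p under 0.05).

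Zfp36l1 had 13.60 to 86.95 intronic units in labeled RNA with a median of 36.45 and 6.30 to 35.71 in total RNA with a median of 13.2, which overlapped. The log2 difference was 1.31 ± 0.48 (limma adjusted p = 0.0569), with the replicate as a block the adjusted p was 0.0441 and without a filter it was 0.0722. The mean in total RNA, 15.59 units, lies under the filter of 20 units, so these introns were tested because of their labeled values, with a mean of 43.53. With libraries centred it was 0.66 ± 0.34 (limma adjusted p = 0.175), with the GC trend removed 0.72 ± 0.33 (0.143) and without replicate 1 it was 0.20 ± 0.39 (0.828), whereas without replicate 2 it was 2.41 ± 0.46 (1.9e-05). It passed without labeled 15 min (0.00538), labeled 60 min (0.026) or total 15 min (0.047) of replicate 2. Elavl1 had 14.91 to 78.07 intronic units in labeled and 18.93 to 26.20 in total RNA, with medians of 33.09 and 23.16. Its difference of 0.56 ± 0.37 (limma adjusted p = 0.262) was close to the median of all features, and with each library centred on its median it was -0.09 ± 0.17. With the GC trend removed it was 0.06 ± 0.12 (limma adjusted p = 0.741). Leaving out 1 library gave between 0.27 ± 0.32 (without labeled 60 min of replicate 1, limma adjusted p = 0.595) and 0.85 ± 0.32 (without labeled 60 min of replicate 2, 0.0417). It was 0.05 ± 0.38 without replicate 1 and 1.07 ± 0.47 without replicate 2 (limma adjusted p = 0.966 and 0.0494). Cnot1 had 34.34 to 122.99 intronic units in labeled and 46.85 to 59.43 in total RNA, with medians of 60.33 and 52.72. Its difference of 0.26 ± 0.34 (limma adjusted p = 0.573) turned to -0.39 ± 0.12 with libraries centred (limma adjusted p = 0.0374). In both genes the lowest labeled values came from the 15 and 60 min libraries of replicate 2, whose whole intronic shares were those of total RNA. The fits without replicate 2 leave out both of these libraries, which their low intronic shares had singled out.

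Btg2 introns, below the filter with a mean of 13.55 units, had 11.20 to 30.02 units in labeled RNA with a median of 20.73 and 2.38 to 12.31 units in total RNA with a median of 4.91. Labeled RNA was higher in 6 of 6 pairs, and 5 of 6 labeled libraries lay above all total libraries. In the fit without a filter, where 17.9% of all features passed as higher, the log2 difference was 1.78 ± 0.38 (limma adjusted p = 0.00743). Khsrp introns had 6.55 to 26.04 units in labeled and 5.24 to 12.55 units in total RNA, with medians of 12.31 and 6.36, and did not pass in that fit (limma adjusted p = 0.147).

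**Figure D3:**
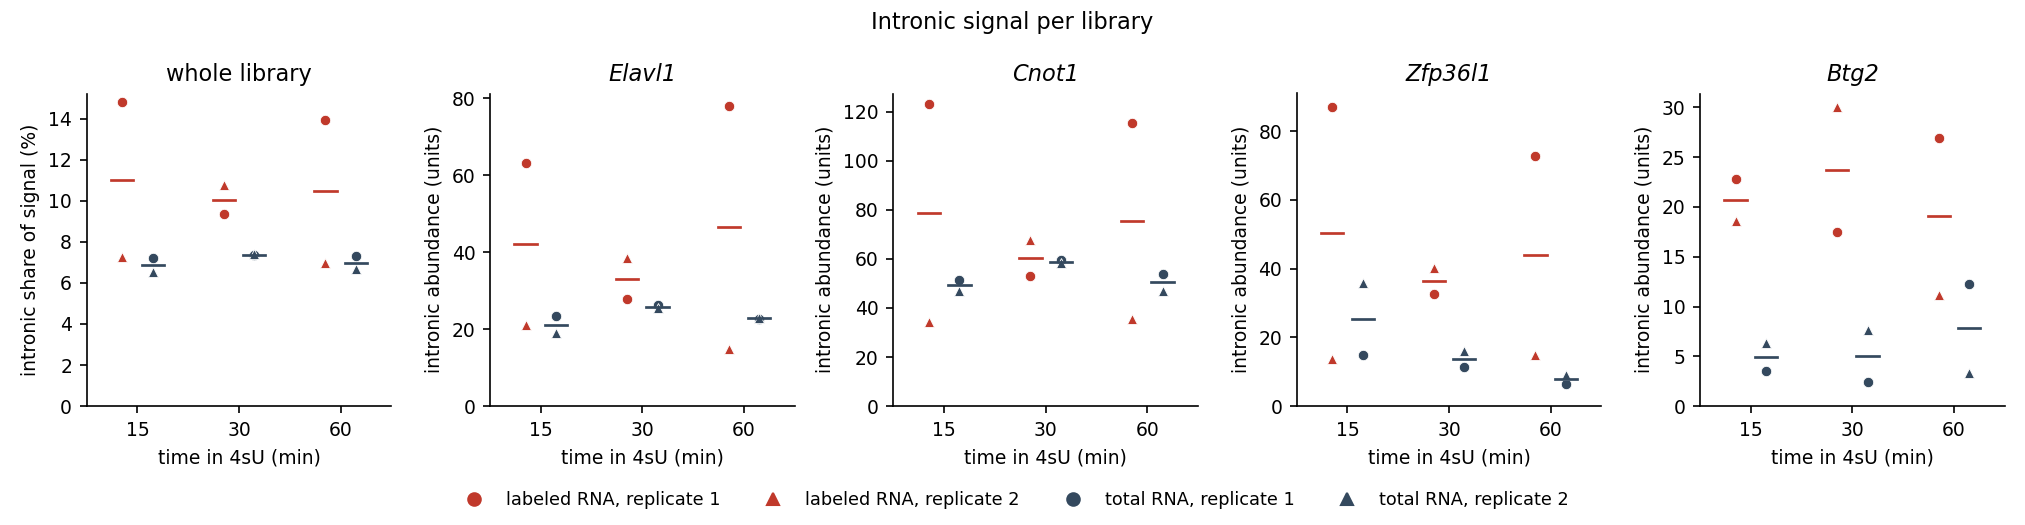
Share of signal in introns per library in percent, and intronic abundance in units of Elavl1, Cnot1, Zfp36l1 and Btg2, against time in 4sU, with labeled RNA in red, total RNA in dark blue, circles for replicate 1, triangles for replicate 2 and bars for the mean of 2 libraries. The labeled 15 and 60 min libraries of replicate 2 lie among the total libraries in the first panel and are the lowest of all in Cnot1, while labeled Btg2 stays at 11.20 units or more.

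The balance of unspliced to spliced RNA was tested for the 3 genes with enough intronic signal, and the ratio of Elavl1 passed. Introns made up 16.77% to 46.76% of its signal in labeled and 13.41% to 17.17% in total RNA, and the share was higher in labeled RNA in 6 of 6 pairs. The intron-to-exon log2 ratio was higher by 1.18 ± 0.37 (limma adjusted p = 0.0348), where 21.9% of 10486 features passed, 21.6% as higher and 0.248% as lower, and the median was 0.64. With libraries centred, the difference of Elavl1 was 0.50 ± 0.18 and did not pass (limma adjusted p = 0.0865), and over all features the calls were then 608 higher and 477 lower in place of 2270 and 26. It did not pass without a filter either (limma adjusted p = 0.0777), nor with the GC trend removed, at 0.51 ± 0.17 (0.0681). The call held without either labeled library that stands apart and was lost without any one of the other 10 libraries (limma adjusted p = 0.056 to 0.0841). Zfp36l1 and Cnot1 had differences of 0.97 ± 0.56 and 0.74 ± 0.40 (limma adjusted p = 0.199 and 0.173). With libraries centred they were 0.29 ± 0.41 and 0.06 ± 0.15 (limma adjusted p = 0.676 and 0.836), and with the GC trend removed 0.31 ± 0.41 and 0.11 ± 0.14 (0.65 and 0.643). Both passed without labeled 15 min of replicate 2 (limma adjusted p = 0.0251 and 0.025), a library that was itself singled out by its low intronic share. Without labeled 60 min of replicate 1 the difference of Zfp36l1 was 0.48 ± 0.46 (limma adjusted p = 0.496). Without labeled 15 min of replicate 1 that of Cnot1 was 0.44 ± 0.32 (limma adjusted p = 0.377). Khsrp, whose introns lie below the filter, had an intronic share of 9.24 ± 4.33% in labeled and 3.24 ± 1.08% in total RNA (SD, n = 6), higher in labeled RNA in 6 of 6 pairs. In the fit without a filter its ratio was higher by 1.44 ± 0.38 and passed (limma adjusted p = 0.0407), beside 7.57% of all features as higher and 0.193% as lower, while that of Btg2 was 0.67 ± 0.38 and did not (0.26). Btg1 passed as lower in that fit (limma adjusted p = 0.043), but its introns had no value above the cutoff in any labeled library and at most 1.92 units in total RNA, so no size is given.

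The times in 4sU were compared next, to see whether the labeled fraction shifts with longer labeling and whether 4sU itself moved total RNA. No feature passed in labeled RNA after 60 against 15 min (limma, 0 of 25318, with 252 at an unadjusted p under 0.05) or in total RNA (0, with 176), and so 0% of features were called. Btg2 had 40.28 and 39.03 units in labeled RNA after 15 min, 35.58 and 51.27 after 30 min and 42.99 and 29.30 after 60 min. The log2 difference between 60 and 15 min was -0.15, with a 95% interval of -0.98 to 0.67. In total RNA it was -0.07 (-0.89 to 0.75), and the labeled-to-total difference moved by -0.08 (-1.25 to 1.08). Zfp36, the serum response gene, had 49.61 and 108.09 units in total RNA after 15 min and 63.50 and 34.37 after 60 min, a log2 difference of -0.64 with an interval of -2.04 to 0.76. Without 1 of these 4 libraries it was between -1.19 (without 15 min of replicate 1) and -0.08 (without 15 min of replicate 2). The labeled-to-total difference was tested for a change from 15 to 60 min as well and none passed (limma, 0 called, with 229 at an unadjusted p under 0.05). For the narrowest of the 9 intervals, that of Cnot1, the change lay between -0.75 and 0.63, and the counts of 0 do not show that the times were alike.

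Rates were approximated by ratios, and not with the INSPEcT package used in the study: labeled abundance per hour for synthesis, synthesis over intronic total RNA for processing and synthesis over spliced total RNA for degradation. They are given relative to the median protein-coding gene at each time, as the geometric mean of the 3 times, and use the same values as the comparisons above. Only genes that passed the filter of 20 units over all libraries enter the median and the percentiles. By these means degradation was fastest for Btg2, at 3.04 times the median gene and percentile 95.6 of 9953 genes. Btg2, with a mean of 17.8 units in total RNA, passed the filter because of its labeled values, which are the numerator of this rate. Single pairs ranged from 1.81 to 12.8, the highest from 60 min of replicate 1, where introns made up 45.34% of its signal in total RNA. The pairs of Zfp36 (0.494 to 4.39) and Btg1 (0.975 to 1.93) overlapped this range. Zfp36 with 1.33, Btg1 with 1.32, Tob1 with 1.29, Zfp36l1 with 1.19 and Zfp36l2 with 1.07 followed at percentiles 74.2 to 57.1, with overlapping ranges over the pairs that all include 1. Elavl1 with 0.70, Cnot1 with 0.651 and Khsrp with 0.567 were at percentiles 12.6, 7.58 and 2.30. The pairs of Elavl1 (0.564 to 0.810) and Cnot1 (0.590 to 0.767) stayed below 1, and those of Khsrp ran from 0.306 to 1.09.

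**Figure D4:**
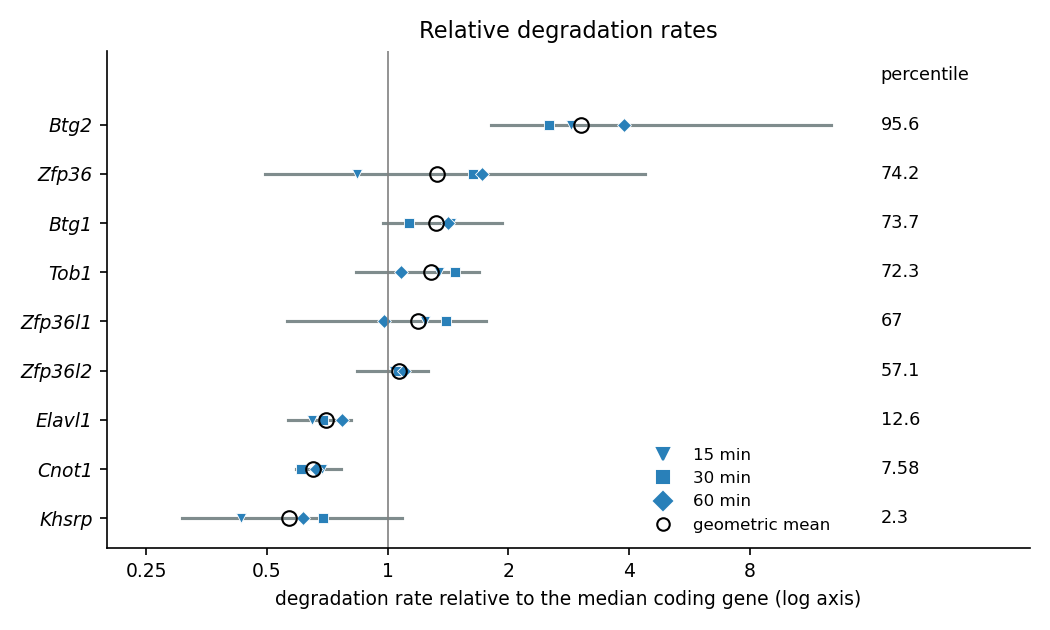
Degradation rates of the 9 regulators relative to the median coding gene (log axis), with filled symbols for 15, 30 and 60 min, open circles for their geometric mean, grey lines for the range over 6 pairs of libraries and the percentile among 9953 coding genes at the right. Btg2, which passed the filter because of its labeled values, stands at 3.04. The 5 other BTG/TOB and Zfp36 family genes lie between 1.07 and 1.33, and Elavl1, Cnot1 and Khsrp between 0.567 and 0.70.

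Synthesis ordered the genes otherwise. Cnot1 was made at 8.78 times the rate of the median gene (percentile 90.9 of 10630 genes), Zfp36l1 at 2.01 and Tob1 at 1.15 times, while Khsrp (0.815), Zfp36l2 (0.652), Zfp36 (0.507), Elavl1 (0.49) and Btg1 (0.441) were below it. With the most abundant transcript of each gene in place of the sum, Khsrp (1.73), Zfp36l2 (1.39), Zfp36 (1.08) and Elavl1 (1.04) were above it. Btg2 was lowest at 0.24 times, percentile 13.6, so that by the means over times it combined the lowest synthesis with the highest degradation of the 9. Its pairs in synthesis (0.211 to 0.313) overlapped those of Zfp36 (0.252 to 1.015). Processing relative to the median gene was 4.71 for Cnot1, with a range over pairs of 4.46 to 5.33, 4.08 for Zfp36l1 (1.47 to 7.84) and 3.24 for Khsrp (1.17 to 6.91). Btg2 had 1.18, with pairs on both sides of the median gene (0.557 to 2.77). Elavl1 had 0.597, at percentile 28.9 of 9874 genes, and was below the median gene in all pairs (0.549 to 0.647). The rates of Tob1 (31.5) and Zfp36l2 (16.1) rest on intronic values near the cutoff of 1 unit in 3 of 6 pairs, and Zfp36 and Btg1 had no intronic value at some times and so no rate.

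The gene whose exonic abundance was most like each regulator over the 12 libraries was named as a description, by Pearson's r of log2(value + 1) among 14018 genes. It was Tpp2 for Cnot1 (r = 0.989), AI314180 for Elavl1 (0.985), Gm12258 for Btg2 (0.98), Rpl28 for Khsrp (0.977), Olig2 for Tob1 (0.965), Hist1h1c for Zfp36 (0.944), 9430015G10Rik for Btg1 (0.939), Nup62 for Zfp36l1 (0.934) and Tmem97 for Zfp36l2 (0.933). These libraries share the labeled and total contrast, base composition and scaling, and each r is the highest of many.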

How the data were processed

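RNA of mESCs was labeled with 4sU and sequenced as labeled and total RNA. Per the submitters' processing notes, the tools were STAR 2.5.0 and RSEM and the genome build was mm10. The authors removed rRNA reads, aligned the rest to exonic and intronic sequences and quantified them. The deposited signal values have nearly equal totals per library and were read as length-normalized abundances of roughly 20 units per TPM. No source used here states this unit. No value of 1 or below is listed, and the gaps were taken as 0. As the values keep no depth, no counting error was computed.

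Transcripts were summed per gene by GENCODE M1 (mm9), the annotation given here, which held 83847 of 111672 Ensembl transcripts. Between 24.1% and 29.0% of exonic signal per library had no M1 gene, and such transcripts entered the fits singly. Coordinates are mm9 and do not come from the deposited values. Genes and transcripts with a mean of at least 20 units were tested on the log2(value + 1) scale in R 4.3.3 with limma 3.58.1. The fit used a trend of variance with abundance, and p-values were adjusted by Benjamini and Hochberg (Benjamini-Hochberg) and called under 0.05. Labeled and total RNA were compared with labeling time as a factor, and times by contrasts of group means, which share 1 spread. Fold changes are on the log2(value + 1) scale and understate those of low genes. The replicates are 2 separately passaged parts of 1 culture. The labeled-to-total fits had no replicate term except with the replicate block. Their p-values measure the spread of the 12 libraries that labeling time and fraction leave. They count the 3 times and both fractions of a replicate as independent, and so do not measure the spread between cultures. In the contrasts of times, p-values measure the spread within groups of 2 libraries. The pairing comes from the labels' biological replicate number. Between labeled and total libraries with the same number, deviations from the group mean had correlations of -0.04, 0.07 and -0.24 over 25318 features at 15, 30 and 60 min. The fits were tested on simulated data, where fewer changed features were recovered in each of the other comparisons than in exons of labeled against total RNA. Of 200 features changed by 1 on the log2 scale, 94 were recovered in these exons and 11 in introns. In the intron-to-exon ratio and in each comparison of times 0 were recovered. Smaller changes were not simulated.

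Named are all 9 regulators, up to 2 genes per list and direction with the largest passing exonic difference, and 1 most similar gene per regulator. Genes without a listed value, Tob2 and Btg3 as BTG/TOB relatives, and Edc4, Jun and Elavl2, were named after their values were seen. The members and lists were chosen with earlier results of these data known. Motifs were searched in the M1 3′ UTR of 1 transcript per gene. Sox1 was not matched, and INSPEcT was not run. Protein sequences were not used here. Alternatives tried were the pseudocount, the filter, centring, the trend, the replicate block, single transcripts and each library or replicate left out. The removal of the GC trend, the crossed block and leaving out both labeled libraries that stand apart were chosen after seeing the data. Tables used Python 3.11.15, numpy 2.4.6, pandas 2.3.3 and matplotlib 3.10.9.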

Additional observations from a re-analysis of the deposited data

Results flagged for a closer look

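Within groups of 6 libraries, 30 sets of exonic or intronic values of the 9 regulators were examined for a single library far from the rest, with introns taken where their mean was at least 2 units. About 1 in 20 such groups is marked by chance, which gives 1.5 of 30, and 3 were marked. Zfp36l2 exons in the labeled 15 min library of replicate 2 had 164.81 units, where the other labeled libraries had 76.69 to 107.43. Zfp36l1 introns in the total 15 min library of replicate 2 had 35.71 units, where the others had 6.30 to 15.99. Khsrp introns in the total 60 min library of replicate 1 had 12.55 units, where the others had 5.24 to 6.90.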

How the results depend on the processing

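Among the exonic differences of the 9 regulators between labeled and total RNA, 0 changed sign under any alternative. With both replicates present, Btg2 and Elavl1 passed in 22 of 22 and 23 of 23 alternatives, Cnot1 in 22 of 23 and Khsrp in 14 of 23. With the replicate block, 2442 features were called in exons in place of 4017, and the block removed the calls of Cnot1, Khsrp, Cnot4, Lsm1 and Edc4 and added that of Zfp36l1 introns, which were tested because of their labeled values and did not pass without a filter, changing no other call of a named gene that was fitted with it. The pairing crossed at 60 min, chosen after seeing the data, gave 4718. Without both labeled libraries that stand apart 7460 were called, and 7888 with each transcript fitted by itself.

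Leaving out 1 library or a whole replicate gave 0 to 5479 calls in exons, 1381 to 6363 in introns and 295 to 5826 in the intron-to-exon ratio. The 0 came without replicate 1 (2334 at an unadjusted p under 0.05), and 5 remained without replicate 2. In introns 6438 were called without a filter, 941 with a filter 5 times higher and 1353 of 8352 features with the GC trend removed. In the intron-to-exon ratio 799 were called with that higher filter, 1085 with libraries centred and 733 of 7344 features with the GC trend removed. Intronic differences turned for Elavl1 to -0.09 with libraries centred, and for Cnot1 to -0.39 with libraries centred. With the GC trend removed, which also centres libraries, the difference of Cnot1 was -0.28. With a library or replicate left out, intronic differences ran from -0.21 to 0.72 for Cnot1, and those of the ratio from -0.30 to 2.23 for Zfp36l1. The highest of each came without replicate 2, which leaves out both labeled libraries that stand apart.

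For 60 against 15 min, calls numbered 5 without a filter and 1 without the variance trend in labeled RNA, and 7 with a pseudocount of 10, 12 without a filter and 7 without the trend in total RNA. For the change of the labeled-to-total difference they numbered 12 and 8. Leaving out libraries gave 0 to 6, 0 to 4 and 0 to 6 calls. The differences of Btg2 then ran from -0.42 to 0.11 in labeled and -0.17 to 0.03 in total RNA and from -0.35 to 0.18 for the change, which was 0.05 with libraries centred. Those of Zfp36 ran from -0.77 to 0.87 in labeled RNA and from -0.13 to 1.51 for the change. Using the most abundant transcript of each gene, 7 and not 3 regulators had synthesis rates above the median gene. The cause of these changes was not tested.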
